A study of Mus musculus with 2 samples.

Results

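The lysosomal proteases, the subunits of the vacuolar proton pump (V-ATPase) and a pair of lysosomal membrane glycoproteins were followed in cultured primary mouse brain pericytes (PCs). Members were taken by symbol from the gene table. They are all genes named *Atp6v0* or *Atp6v1* with any ending, all cathepsins (*Cts* with 1 letter), *Lamp1*, *Lamp2* and *Lgmn*. This gave 43 of 31053 genes, of which 19 encode proteases, 22 encode pump subunits and 2 encode membrane glycoproteins. The comparison made throughout is that of the proteases with the pump subunits.

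Single cells were sequenced from 1 culture at passage 5 (PC5) and 1 culture at passage 20 (PC20). Both began from brains (freed of olfactory bulb, cerebellum and medulla) of wild type female C57BL/6N mice of 6 to 8 weeks, with the cells of 6 mice pooled in an isolation. The methods of the study give each culture an isolation of its own, whereas the submitters' design text names a single group of 6 mice. On the former account the effects of passage and of isolation cannot be told apart. With 1 library per passage differences between passages have no replicate check and were not tested. Both were grown on collagen, in endothelial medium and, from early passages on, in Pericyte Medium, with no other cell type added.

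Lysosomes break down proteins and other material that reaches them by endocytosis or autophagy. Most cathepsins are made as inactive precursors and work best at acid pH. The acid is made by the V-ATPase, a rotary machine with a V1 sector that hydrolyses ATP in the cytosol and a V0 sector that carries protons through the membrane. PCs wrap brain capillaries and are known to take up and degrade material from their surroundings.

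The authors deposited counts of unique molecular identifiers (UMIs), each of which marks 1 captured RNA molecule at its 3' end. Kept cells had more than 1000 genes and under 20% mitochondrial UMIs. They were 9950 cells with 223054273 UMIs in PC5 (median 21700 per cell) and 4749 cells with 191122251 UMIs in PC20 (median 33424 per cell). Of their barcodes 20 occurred in both libraries. Levels are UMIs per 1000000 UMIs of the library (CPM). They are not divided by gene length, since each molecule is counted once at its end, but genes may differ in how well they are captured. The difference between libraries is the log2 of the PC5 level over the PC20 level (log2 ratio), with values above 0 for genes higher in PC5. Brackets hold 95% intervals, which are exact Poisson for CPM, conditional binomial for ratios and Clopper-Pearson for shares of cells. They cover counting error only. The share of cells that held a UMI was taken after drawing the same number of UMIs from each cell (thinning), which 8847 PC5 and 4474 PC20 cells were deep enough for.

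The pericyte label was read against marker genes. *Pdgfrb*, the platelet-derived growth factor receptor of PCs, was at 44.6 CPM in PC5, where 54.2% of kept cells held its UMI, against 5.43 CPM in PC20. *Cspg4* had 5.55 and 0.0994 CPM and *Anpep*, which was higher in PC20, had 1.93 and 3.00 CPM. *Rgs5* had 405 and 0 UMIs, *Kcnj8* 13 and 0, and *Abcc9* 1 in each library. The sum of these 6 pericyte genes was 53.9 CPM in PC5 and 8.53 CPM in PC20. Summed fibroblast markers (*Pdgfra*, *Lum*, *Dcn*, *Col3a1*) were at 1302 CPM in PC5 against 101 CPM in PC20. Most of this was *Col3a1*, with 1158 and 101 CPM. *Pdgfra* had 19758 and 25 UMIs, *Dcn* 11434 and 32, and *Lum* 796 and 0. Of 10 genes of microglia and macrophages, which are rich in cathepsins, 7 in PC5 and 9 in PC20 had at most 3 UMIs. *Tyrobp*, *Cd48*, *Adgre1* and *C1qb* had 0 UMIs in both libraries, and *Cx3cr1*, with 786 and 149 UMIs, held most of the list's 914 and 153. No cell type that lacks the members was singled out in these cultures, so the share of cells that get a UMI from free RNA alone was not measured. The smooth muscle list had 283 and 49.6 CPM, mostly from *Tagln* in PC5 (219 and 0.230 CPM) and from *Acta2* in PC20 (62.8 and 49.2 CPM). The endothelial list had 181 and 0.246 CPM. In PC5 the endothelial sum came mostly from *Cdh5*, which had 37453 UMIs there and 5 in PC20. The astrocyte list had 151 and 229 CPM, mostly from *Slc4a4* (143 and 229 CPM). Its other genes were higher in PC5, *Aldh1l1* with 1640 and 5 UMIs and *Aqp4* with 28 and 1. The oligodendrocyte list had 0.915 and 0.895 CPM. The part of these lists in the differences below was not tested.

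A member counts as detected if its UMI was seen in 10% or more of kept cells in PC5 or in PC20, before thinning. Of the 43 members, 26 were detected, namely 10 of 19 proteases, 14 of 22 pump subunits and both membrane glycoproteins. *Ctsk* passed through PC5 alone and *Atp6v0e2* through PC20 alone, so these had to differ. Of the 17 others, *Ctsm*, *Ctsq* and *Ctsr*, known from placenta, had 0 UMIs in both libraries. *Ctse*, *Ctsg*, *Ctsj*, *Ctss* and *Ctsw* had at most 3 UMIs in a library, among them cathepsins known from immune cells. *Ctsf* gave 362 UMIs in PC5 and 176 in PC20. The pump isoforms known mostly from kidney, testis or neurons were also scarce. *Atp6v1g2* had 111 and 91 UMIs, and *Atp6v0d2*, *Atp6v1b1*, *Atp6v1c2*, *Atp6v1e2* and *Atp6v1g3* had at most 11 in a library. *Atp6v0a4* was seen in PC5 with 75 UMIs but with 0 in PC20. A floor of 3 UMIs in that library would put its log2 ratio at 4.42, and its counting interval began at 4.09. *Atp6v0c*, which encodes the main proton-carrying ring subunit, had 474 and 268 UMIs. Its 3' end of 400 bases matches the pseudogenes *Atp6v0c-ps1* (97% identity) and *Atp6v0c-ps2* (99.75%), so how many of its reads could be assigned is uncertain and its level is not read here.

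Proteases and pump did not split by passage as blocks. Instead each block held members that were higher in PC5 beside members that were higher in PC20. Of all 10504 detected genes, 17.9% had a log2 ratio above 1, 19.1% had one below -1 and 37% were past 1 in either direction, the threshold used below, which is a fold of 2. Of the 26 members, 4 were above 1 (*Ctsk*, *Atp6v0a2*, *Atp6v0a1* and *Atp6v0e*) and 4 were below -1 (*Atp6v0e2*, *Atp6v1g1*, *Atp6v0b* and *Ctsz*). This is 30.8% of the members, no more than the share over all genes. Among the proteases 2 of 10 were past 1, and among the pump subunits 6 of 14, of which 5 were among the 6 detected V0 members and 1 among the 8 detected V1 members. The median log2 ratio was 0.23 for the 10 proteases and 0.08 for the 14 pump subunits, beside -0.03 for all detected genes. A ratio above 0 was found for 16 of 26 members and for 48.9% of all genes. At a lower threshold of 0.5, 10 members were higher in PC5, beside 30.2% of all genes, and 6 in PC20, beside 32.7%.

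**Figure D1:**
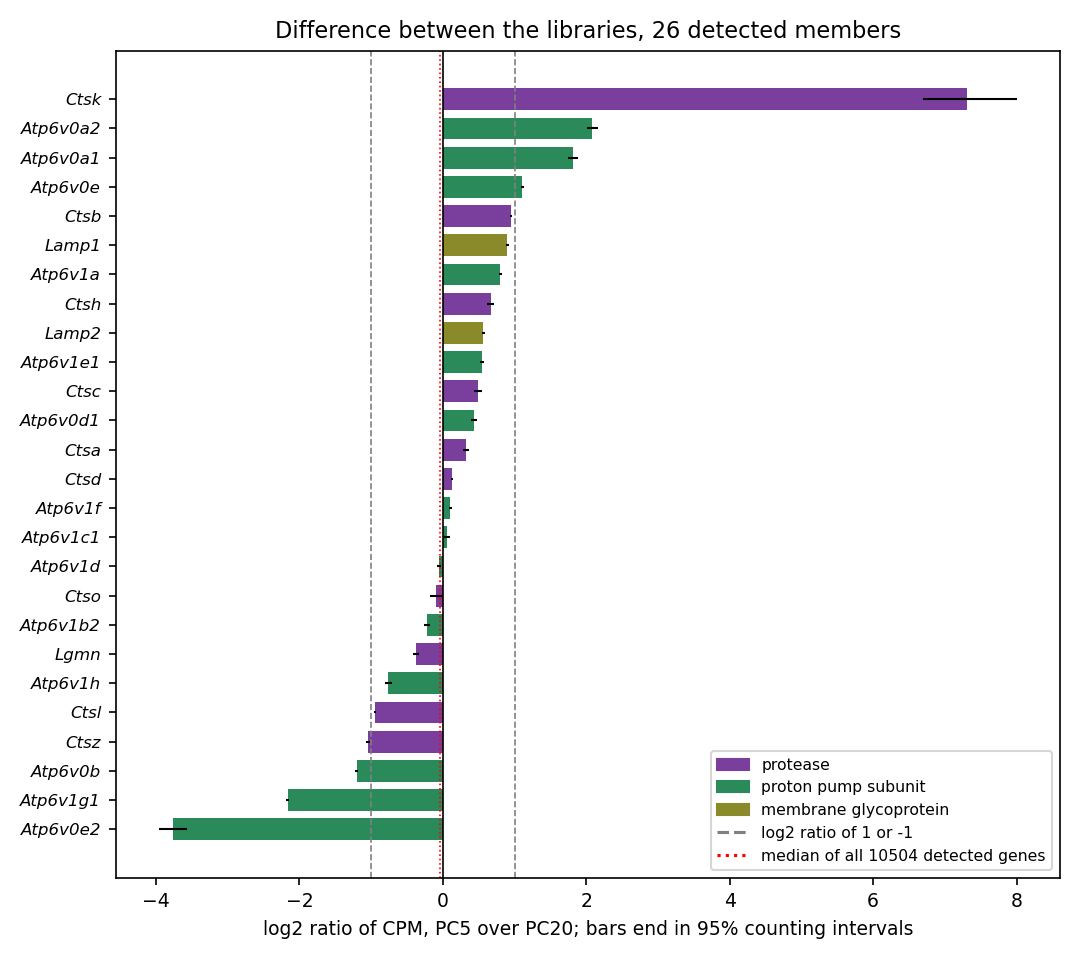
Bars give the log2 ratio of CPM, PC5 over PC20, for each of the 26 detected members, coloured by block, with 95% counting intervals at their ends; dashed lines mark 1 and -1 and the dotted line the median of all 10504 detected genes. Both blocks hold members on each side, from *Ctsk* at 7.31 to *Atp6v0e2* at -3.76.

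Summed over all members of a block, the protease UMIs were level between the libraries. They made up 1481 CPM (1476 to 1486) in PC5 against 1488 CPM (1483 to 1493) in PC20, with the log2 ratio at -0.01 (-0.01 to 0.00). The summed pump subunits were at 1431 CPM (1426 to 1436) in PC5 against 1798 CPM (1792 to 1804) in PC20 (log2 ratio -0.33, -0.34 to -0.32). *Atp6v1g1* decided that direction, and without it the summed pump had 1265 and 1049 CPM, with the log2 ratio at 0.27 (0.26 to 0.28). Within each library, where no scaling enters, there were 1.03 (1.03 to 1.04) protease UMIs per pump UMI in PC5 and 0.828 (0.824 to 0.832) in PC20. Without *Atp6v1g1* the order turned, to 1.17 in PC5 and 1.42 in PC20. The pump sums count *Atp6v0c*, whose level is uncertain, and leave out *Tcirg1*, a V0 subunit gene that is no member. The intervals do not cover this. The summed membrane glycoproteins were at 578 CPM in PC5 against 338 CPM in PC20 (log2 ratio 0.77).

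The level protease sum hid opposite members. Leaving out *Ctsl* moved its log2 ratio to 0.31 and leaving out *Ctsb* moved it to -0.35, while it was -0.06 without *Ctsd*. *Ctsb* gave 35.4% of protease UMIs in PC5 and 18.2% in PC20. *Ctsl* gave 17.6% and 33.7%, so *Ctsb* led in PC5 and *Ctsl* in PC20. *Ctsd* had a like share in both, 28.3% and 25.7%, and *Ctsz* gave 6.01% and 12.3%. *Ctsb*, *Ctsd* and *Ctsl* together held 81.2% of the protease UMIs in PC5 and 77.5% in PC20. The pump was led by *Atp6v0e* in PC5 with 21.8% of pump UMIs, ahead of *Atp6v1a* with 15.0%. In PC20 *Atp6v1g1* alone held 41.6% of them, against 11.6% in PC5, and *Atp6v0b* was next with 12.4%.

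**Figure D2:**
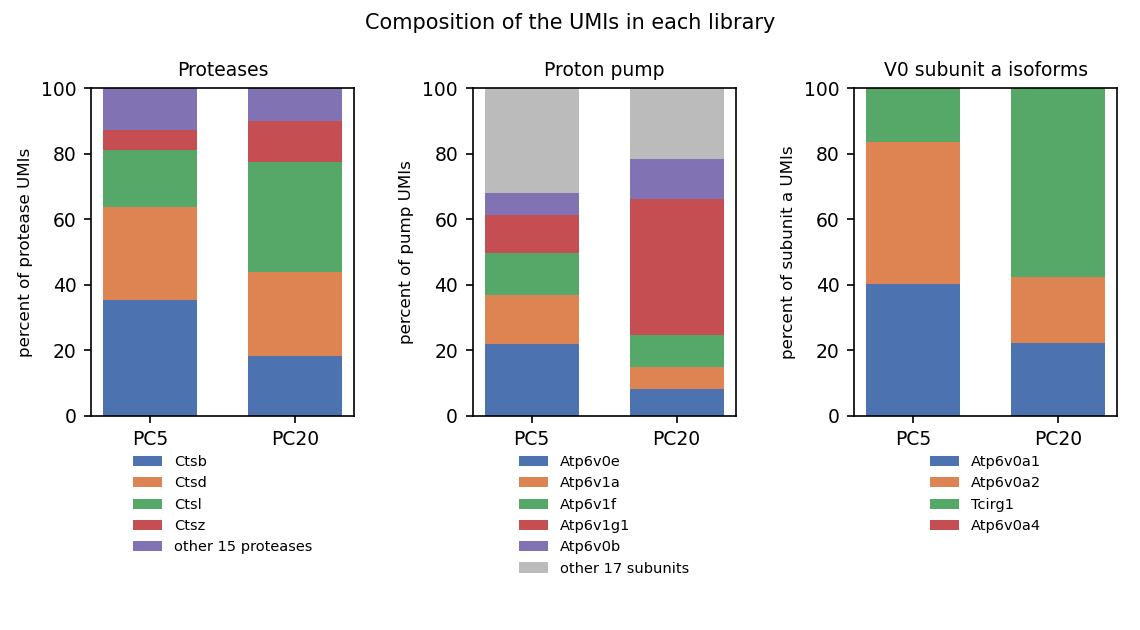
Stacked bars give the percent of UMIs that each gene contributed in PC5 and PC20, for all proteases, for all pump subunits and for the isoforms of V0 subunit a, with *Tcirg1* as the a3 isoform. *Ctsb* is at 35.4% in PC5 and 18.2% in PC20, *Ctsl* at 17.6% and 33.7%, and *Atp6v1g1* at 11.6% and 41.6% of the pump.

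The promoters of 5 members are shown because many lysosomal genes are known to carry the E-box CACGTG, the core of the element bound by TFEB and its relatives. Each sequence covers the 150 bases before the RefSeq start site on build GRCm38.p6, read 5' to 3' along the gene, with E-boxes in capitals. *Lamp1* had 4, *Atp6v0b* 2, *Ctsd* and *Atp6v1a* 1 each and *Ctsk* 0. The genes of *Lamp1* and *Ctsk* lie on the plus strand and the other 3 on the minus strand.

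Lamp1 chr8:13159011-13159160: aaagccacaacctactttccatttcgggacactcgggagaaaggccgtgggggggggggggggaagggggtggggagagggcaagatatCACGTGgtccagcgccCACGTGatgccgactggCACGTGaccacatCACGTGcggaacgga
Atp6v0b chr4:117887330-117887479: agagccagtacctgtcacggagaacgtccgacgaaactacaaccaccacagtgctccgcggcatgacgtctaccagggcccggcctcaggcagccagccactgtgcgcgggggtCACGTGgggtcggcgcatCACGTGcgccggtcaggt
Ctsd chr7:142387828-142387977: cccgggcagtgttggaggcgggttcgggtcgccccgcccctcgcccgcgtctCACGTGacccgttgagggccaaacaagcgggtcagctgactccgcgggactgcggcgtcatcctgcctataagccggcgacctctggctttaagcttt
Atp6v1a chr16:44139260-44139409: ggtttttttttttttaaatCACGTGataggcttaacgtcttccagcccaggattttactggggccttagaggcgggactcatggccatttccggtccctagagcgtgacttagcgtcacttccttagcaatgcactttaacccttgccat
Ctsk chr3:95499060-95499209: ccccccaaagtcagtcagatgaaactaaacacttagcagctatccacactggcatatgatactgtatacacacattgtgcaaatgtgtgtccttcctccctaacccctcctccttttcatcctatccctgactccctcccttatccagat

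Windows ran from 250 bases before to 50 after the start. CACGTG, which reads the same on both strands, was found for 8.09% of 27025 genes, detected or not (7.15% of 32851 windows). Of the 26 detected members 19 were in the promoter table, and 9 of these held an E-box, namely *Atp6v0b*, *Atp6v0d1*, *Atp6v0e*, *Atp6v1a*, *Ctsa*, *Ctsd*, *Ctsl*, *Lamp1* and *Lgmn*. Their log2 ratios ran from -1.20 to 1.11, with 6 above 0 and 3 below. Of the 10 without an E-box 6 were above 0 and 4 below. Over all detected genes 48.9% were above 0. Members with and without the motif thus lay on both sides. The 7 detected members not in the promoter table, among them *Ctsb*, *Atp6v0a2* and *Atp6v1g1*, are not part of this split. The longer TCACGTGA, which contains CACGTG, was found for 1.12% of all genes in the table and for 5 of the 19 members. The AP-1 motif TGAGTCA, searched on both strands, was found for 5.95% of all genes and for 0 of the 19 members. A match describes letters in a window, and its use by a factor was not tested.

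The cysteine cathepsins are papain-like proteases. *Ctsb* (ENSMUSG00000021939, GRCm38 chromosome 14 from 63122462 to 63145923), which encodes a protease able to cut within proteins and trim their ends, gave 116841 UMIs in PC5 and 51756 in PC20. Its level was 524 CPM (521 to 527) and 271 CPM (268 to 273), with the log2 ratio at 0.95 (0.94 to 0.97). *Ctsl* (ENSMUSG00000021477, chromosome 13 from 64359337 to 64370890), an endopeptidase that also processes other enzymes, went the other way. It had 58041 and 95710 UMIs, 260 CPM (258 to 262) in PC5 against 501 CPM (498 to 504) in PC20, with the log2 ratio at -0.94 (-0.96 to -0.93). There were 0.497 *Ctsl* UMIs per *Ctsb* UMI in PC5 and 1.85 in PC20. Both genes lay just inside the threshold of 1.

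*Ctsk* (ENSMUSG00000028111, chromosome 3 from 95499256 to 95509362), a strong collagen-degrading protease known from osteoclasts and also found in fibroblasts, was nearly confined to PC5. It gave 3891 UMIs in PC5 and 21 in PC20, or 17.4 CPM (16.9 to 18.0) and 0.110 CPM (0.0680 to 0.168). The log2 ratio was 7.31 (6.70 to 8.00), and it lay between 7.31 and 7.75 under the alternatives tried. A *Ctsk* UMI was held by 16.5% of thinned PC5 cells and 0.0894% of thinned PC20 cells (29.3% and 0.421% without thinning). A thinned share as small as that of PC20 is not read as expression. Of the 20 PC20 cells with a *Ctsk* UMI, 0 had a barcode that PC5 also held. Only 0.421% of all kept PC20 barcodes occurred in both libraries, so this says little about the source of these UMIs, which was not tested. The osteoclast markers *Calcr* and *Dcstamp* had at most 1 UMI in a library, while *Acp5* had 201 and 1 and *Ocstamp* had 20 and 2. Fibroblast markers and *Ctsk* were both higher in PC5, and the part of the former in this was not tested.

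*Ctsz* (ENSMUSG00000016256, chromosome 2 from 174427493 to 174439039), a carboxypeptidase also called cathepsin X, was at 89.0 CPM (87.7 to 90.2) in PC5 against 183 CPM (181 to 185) in PC20 (log2 ratio -1.04, -1.07 to -1.02). The share of thinned cells with its UMI was 59.4% in PC5 and 83.7% in PC20. *Ctsz* was thus just past the threshold and *Ctsl* just short of it, with the higher level of both in PC20. The aminopeptidase gene *Ctsh* had 42.0 and 26.4 CPM (log2 ratio 0.67) and the dipeptidyl peptidase gene *Ctsc* had 30.5 and 21.7 CPM (0.49). The little-studied *Ctso* had 10.8 and 11.6 CPM, with the log2 ratio at -0.10 (-0.18 to -0.01). These 3 were within a fold of 2.

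*Ctsd* (ENSMUSG00000007891, chromosome 7 from 142375911 to 142388038), the main aspartic protease of lysosomes, was at 419 CPM (416 to 422) in PC5 against 382 CPM (379 to 385) in PC20. Its log2 ratio of 0.13 (0.12 to 0.15) was the smallest in size among the proteases with over 100 CPM. *Ctsd* was thus nearly level between the libraries, which differed in the order of *Ctsb* and *Ctsl*. On the same strand it overlaps *Gm49369*, which had 0 UMIs in both libraries. The pseudogene *Gm49230*, which overlaps *Ctsl* on its strand, has no row in the gene table used here. *Ctsa*, a serine carboxypeptidase that also protects other lysosomal enzymes, had 44.8 and 35.9 CPM (log2 ratio 0.32). *Lgmn*, which encodes legumain, a protease that cuts after asparagine and matures some cathepsins, had 42.1 and 54.4 CPM (-0.37).

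**Figure D3:**
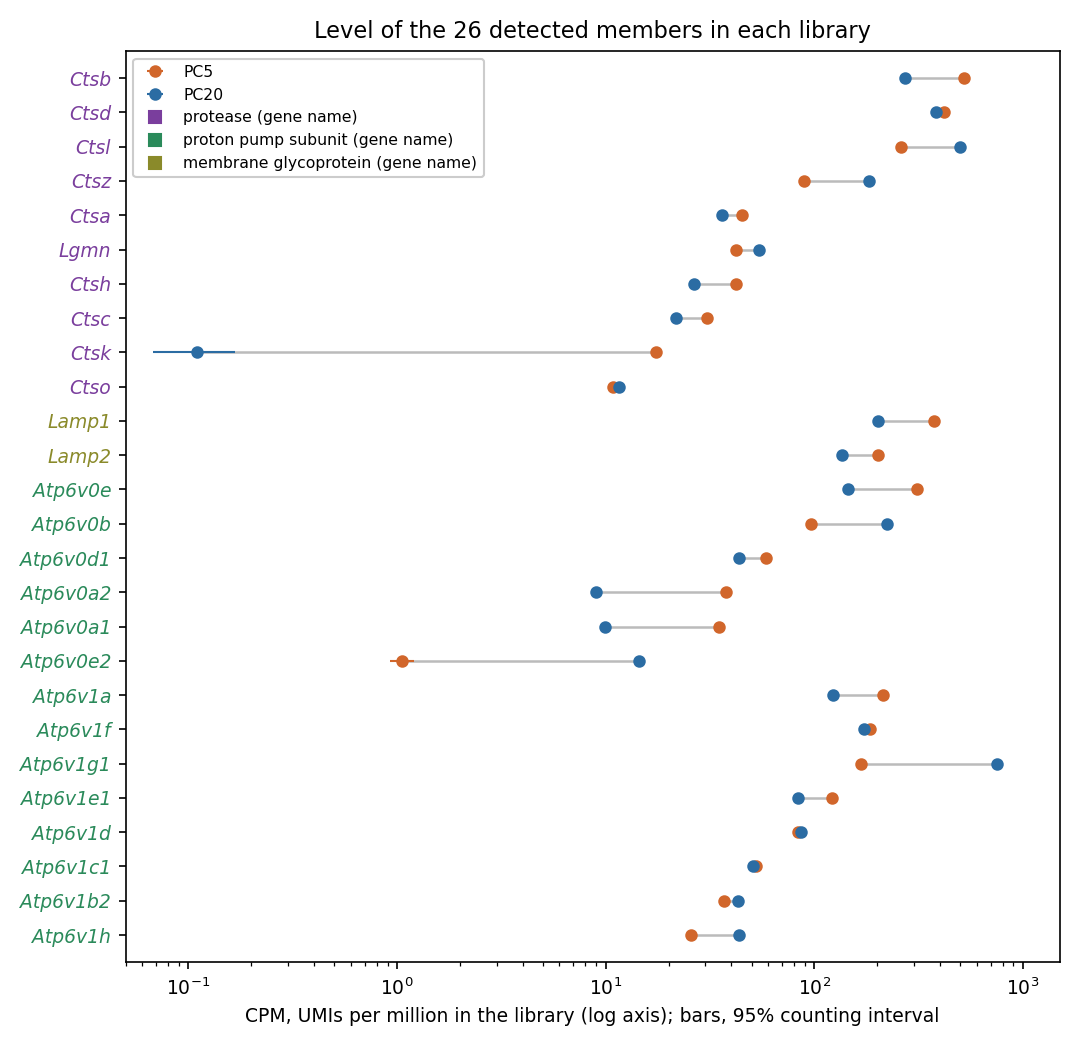
Each row gives the CPM of 1 detected member in PC5 and PC20 on a log axis, with 95% counting intervals, which are wider than the points only for the scarcest values. *Ctsk* at 17.4 and 0.110 CPM and *Atp6v0e2* at 1.06 and 14.4 CPM have the widest gaps, and *Atp6v1g1* in PC20, at 748 CPM, is the highest point.

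*Lamp1* (ENSMUSG00000031447, chromosome 8 from 13159161 to 13175338), the most used marker of lysosomal membranes, gave 83966 UMIs in PC5 and 38581 in PC20, 376 CPM (374 to 379) and 202 CPM (199.9 to 204). The log2 ratio was 0.90 (0.88 to 0.92). *Lamp2*, which encodes a related protein that also serves chaperone-mediated autophagy, had 201 and 136 CPM, with the log2 ratio at 0.56 (0.54 to 0.58). Both were higher in PC5 and under the threshold of 1, with 1.87 *Lamp1* UMIs per *Lamp2* UMI in PC5 and 1.48 in PC20.

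In the V0 sector 5 of the 6 detected members were past the threshold, in both directions, beside 37% of all genes. These are few genes, and *Atp6v0e2* among them passed the detection limit through PC20 alone. *Atp6v0a1* (ENSMUSG00000019302, chromosome 11 from 101009452 to 101063719) and *Atp6v0a2* (ENSMUSG00000038023, chromosome 5 from 124628576 to 124724455) encode isoforms of subunit a, which lines the proton path and places the pump in given membranes. *Atp6v0a1* was at 35.1 CPM (34.3 to 35.8) in PC5 against 9.95 CPM (9.5 to 10.4) in PC20 (log2 ratio 1.82, 1.75 to 1.89). *Atp6v0a2*, the isoform known from the Golgi apparatus, had 37.8 CPM (37.0 to 38.6) and 8.94 CPM (8.52 to 9.37), with the log2 ratio at 2.08 (2.01 to 2.16). An *Atp6v0a1* UMI was in 30.6% of thinned PC5 and 9.5% of thinned PC20 cells, and an *Atp6v0a2* UMI in 32.4% and 9.05%.

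The third common isoform, a3, is encoded by *Tcirg1*, which has another kind of symbol and is no member. It gave 3098 UMIs in PC5 and 4919 in PC20, or 13.9 and 25.7 CPM (log2 ratio -0.89, -0.96 to -0.82). Of all subunit a UMIs it gave 15.9% (15.4 to 16.5) in PC5 and 57.7% (56.6 to 58.7) in PC20. *Atp6v0a1* gave 40.2% in PC5 and 22.3% in PC20, and *Atp6v0a2* 43.4% and 20.0%. The leading isoform of subunit a thus differed between the libraries, and the total for the subunit was 87.1 CPM in PC5 and 44.6 CPM in PC20. At the positions d, B, C, E and G a single isoform (*Atp6v0d1*, *Atp6v1b2*, *Atp6v1c1*, *Atp6v1e1* and *Atp6v1g1*) gave at least 99.7% of the UMIs in both libraries.

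*Atp6v0e* (ENSMUSG00000015575, chromosome 17 from 26663231 to 26699647) and *Atp6v0e2* (ENSMUSG00000039347, chromosome 6 from 48537615 to 48541801) encode isoforms of the small membrane subunit e. *Atp6v0e* was at 312 CPM (310 to 314) in PC5 against 145 CPM (143 to 147) in PC20 (log2 ratio 1.11, 1.09 to 1.13). *Atp6v0e2* gave 236 UMIs in PC5 and 2749 in PC20, 1.06 CPM (0.927 to 1.2) and 14.4 CPM (13.9 to 14.9), with the log2 ratio at -3.76 (-3.96 to -3.57). Its UMI was in 1.06% of thinned PC5 cells and 14.2% of thinned PC20 cells (2.24% and 39.0% without thinning). The isoforms went opposite ways, yet *Atp6v0e* still gave 91.0% of subunit e UMIs in PC20, against 99.7% in PC5.

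*Atp6v0b* (ENSMUSG00000033379, chromosome 4 from 117884326 to 117887333), which encodes a proton-carrying subunit of the membrane ring, was at 96.5 CPM (95.2 to 97.7) in PC5 against 222 CPM (220 to 224) in PC20 (log2 ratio -1.20, -1.23 to -1.18). The share of thinned cells with its UMI was 60.1% and 89.4%. *Atp6v0d1*, which joins the ring to the central stalk, had 58.8 and 43.6 CPM, with the log2 ratio at 0.43 (0.39 to 0.47). It was the only detected V0 member within the threshold, where *Tcirg1*, which is no member, also lay. There were 1.64 *Atp6v0b* UMIs per *Atp6v0d1* UMI in PC5 and 5.10 in PC20.

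In the V1 sector *Atp6v1g1* stood apart. This gene (ENSMUSG00000039105, chromosome 4 from 63544772 to 63550750) encodes subunit G of the peripheral stalks. It gave 37191 UMIs in PC5 and 143019 in PC20, 167 CPM (165 to 168) and 748 CPM (744 to 752), with the log2 ratio at -2.17 (-2.18 to -2.15). Its UMI was in 79.5% of thinned PC5 and 99.5% of thinned PC20 cells. The other 7 detected V1 subunits lay between -0.76 and 0.80. *Atp6v1a* (ENSMUSG00000052459, chromosome 16 from 44085402 to 44139705), the catalytic subunit that hydrolyses ATP, was at 214 CPM (212 to 216) in PC5 against 123 CPM (121 to 124) in PC20 (log2 ratio 0.80, 0.78 to 0.82). Its partner in the catalytic ring, *Atp6v1b2*, had 36.9 and 43.1 CPM (log2 ratio -0.22), so that there were 5.80 *Atp6v1a* UMIs per *Atp6v1b2* UMI in PC5 and 2.85 in PC20. For *Atp6v1g1* over *Atp6v1a* the ratio was 0.779 in PC5 and 6.09 in PC20.

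Of the remaining V1 subunits, *Atp6v1e1*, which pairs with subunit G in the stalks, had 122 and 83.5 CPM (log2 ratio 0.55), and *Atp6v1h*, a regulatory subunit, had 25.7 and 43.7 CPM (-0.76). The stalk partners thus went opposite ways. *Atp6v1f* and *Atp6v1d* of the central stalk had 185 and 173 CPM (0.10) and 83.2 and 86.5 CPM (-0.06). *Atp6v1c1*, which links the sectors, had 52.7 and 50.6 CPM (0.06). For these 3 the difference was small in size, and that of *Atp6v1c1* changed sign under 2 of the alternatives tried. Part of the 3' end of *Atp6v1f* (156 bases) matches the pseudogene *AC169506.3* with 99.359% identity, so its level is uncertain to that extent. Without *Atp6v1g1* the summed V1 subunits were at 721 CPM in PC5 against 604 CPM in PC20 (log2 ratio 0.26), beside 544 and 446 CPM (0.29) for the V0 subunits.

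The comparison was repeated within single cells at equal depth, with *Atp6v0c* and *Tcirg1* treated as in the sums. Thinned PC5 cells held a median of 14 protease UMIs and 14 pump UMIs, and thinned PC20 cells 15 and 19. Without *Atp6v1g1* the pump medians were 13 and 11. Cells with more protease than pump UMIs were 47.7% (46.7 to 48.8) of PC5 and 27.6% (26.3 to 29.0) of PC20 cells, and without *Atp6v1g1* 57.6% and 74.7%. As in the sums, the gene set the order of the libraries. More *Ctsl* than *Ctsb* UMIs were found in 15.7% (15.0 to 16.5) of PC5 cells and 73.4% (72.1 to 74.7) of PC20 cells, with a tie in 10.0% and 8.85%, so most cells of each library had the order of *Ctsb* and *Ctsl* that its sums had. *Ctsd* was not compared in this way.

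**Figure D4:**
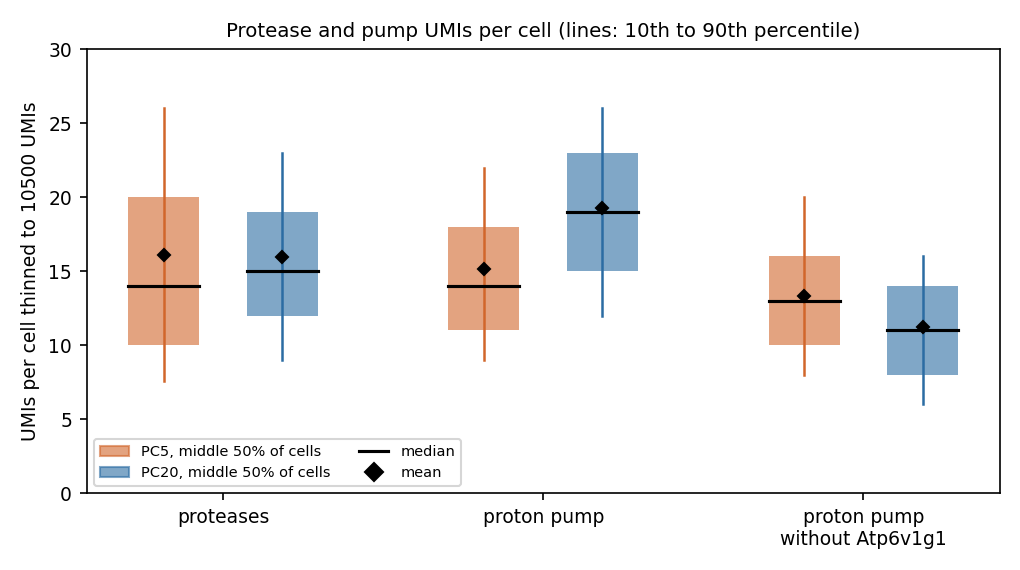
Boxes span the middle 50% of cells, lines the 10th to 90th percentile, with the median as a bar and the mean as a diamond, for summed protease and pump UMIs per thinned cell. The protease medians are 14 in PC5 and 15 in PC20, the pump medians 14 and 19, and without *Atp6v1g1* 13 and 11.

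PC5 cells varied more in their proteases than PC20 cells. The mean number of protease UMIs per thinned cell was 16.1 in PC5 and 16 in PC20, with SDs over cells of 8.81 and 6.14. The variance over the mean, which is 1 for pure sampling noise, was 3.1 for *Ctsb*, 2.70 for *Ctsl* and 2.53 for *Ctsd* in PC5, and 1.68, 1.85 and 1.95 in PC20. All 3 cathepsins were above 1 and so varied between cells beyond sampling, with the higher values in PC5. Their means per thinned cell in PC5 and PC20 were 5.69 and 2.85 for *Ctsb*, 2.83 and 5.58 for *Ctsl* and 4.53 and 3.97 for *Ctsd*. The part of these levels in the spread was not tested. The median of all detected genes was 1.06 in both libraries. That median belongs to genes with few UMIs (median of 0.22 per thinned cell), and the measure can rise with level. It is therefore not a like baseline. *Atp6v1g1* had 1.24 in PC5 and 1.55 in PC20, but at means of 1.76 and 8.05 UMIs, so its spread is not compared. Across thinned PC5 cells the highest rank correlation among 91 pairs of the 14 best covered members was that of *Ctsb* with *Ctsl*, at 0.32, and the median pair was at 0.06. In PC20 the highest was that of *Ctsb* with *Ctsd*, at 0.19, and the median was 0.04. *Ctsb* with *Ctsl* was at 0.03 there. These are descriptions of sparse counts, and the members share libraries and depth.

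Within PC5 the cells that held a *Ctsk* UMI after thinning (1460 of 8847) were set beside those that did not (7387). Of the other 25 detected members 22 were higher in the cells with *Ctsk*, with a median log2 ratio of 0.15, while 53.3% of all detected genes were higher there, with a median of 0.01. Among the members the largest differences were those of *Ctsl*, at 326 and 258 CPM (0.34, 0.29 to 0.38), and *Ctsb*, at 654 and 519 CPM (0.33, 0.30 to 0.36). *Atp6v0a2*, *Atp6v0e* and *Atp6v0e2* were the members below 0, with intervals that include 0. The fibroblast genes *Pdgfra* and *Col3a1* were higher in the same cells, with log2 ratios of 0.31 and 0.30. The collagen gene *Col1a2* was higher by less (0.16). The pericyte gene *Pdgfrb* was also higher (0.18, 0.07 to 0.29). The smooth muscle genes *Acta2* (-0.35) and *Tagln* (-0.20) were lower. These genes were chosen after their values were seen, and *Lum* and *Dcn* were not read here. *Acp5* had 14 UMIs in the cells with *Ctsk* and 66 in the others, a log2 ratio of 0.10 with an interval from -0.85 to 0.95. *Csf1r*, of the microglia and macrophage list, had 10 and 27 UMIs (0.91, -0.31 to 2.00). The scarce member *Atp6v0d2* had 3 and 3 (2.34, -0.56 to 5.24). These intervals include 0. These cells are from 1 library, so the values describe that culture and carry no test.

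Most members were lower in cells with a UMI of the proliferation genes *Mki67* or *Top2a* than in the other cells of the same library. In PC5 25 of 26 members were lower in the 4475 cells with such a UMI than in the 5475 without, with a median log2 ratio of -0.27. Over all detected genes 40.1% were lower there, with a median of 0.06. In PC20 23 of 26 members were lower in 3428 cells against 1321, with a median of -0.23, beside 49.7% of all genes and a median of 0.00. The summed proteases were lower by more than the pump, with log2 ratios of -0.40 and -0.17 in PC5 and of -0.27 and -0.14 in PC20. *Ctsc* had the lowest value of the members in PC5 (-0.47) and the highest in PC20 (0.13), a difference that was not tested. Cells with such a UMI were deeper, with medians of 25567 and 19195 UMIs in PC5 and of 37657.5 and 26024 in PC20, and the part of depth in this was not tested. Cells of a library are not replicates, so no test was made. In the cells without such a UMI the log2 ratios of *Ctsb*, *Ctsl* and *Atp6v1g1*, PC5 over PC20, were close to those in all cells. They were 0.97, -0.97 and -2.18. Other members moved more, such as *Ctsc* from 0.49 to 0.82, *Atp6v1h* from -0.76 to -0.99 and *Atp6v0e* from 1.11 to 0.90. The part of proliferating cells in the differences between libraries was not tested.

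Other genes of the lysosome were read from lists. A list of V-ATPase partners held assembly factors, accessory proteins and regulators, and also the subunit gene *Tcirg1*. Of its 11 detected genes 1 was above 1 and 2 were below -1, together 27.3% beside 37% of all genes. The median was -0.46. *Atp6ap1*, an accessory subunit needed for assembly, was at 111 CPM in PC5 against 47.0 CPM in PC20 (log2 ratio 1.24). The accessory subunit *Atp6ap2*, also known as the prorenin receptor, had 40.5 and 88.0 CPM (-1.12), and *Ncoa7*, a protein that binds the pump, had 20.1 and 45.9 CPM (-1.19). The accessory subunits thus differed in direction, as the V0 subunits did. Of 8 cathepsin inhibitors 4 were detected (*Cst3*, *Cst6*, *Cstb* and *Serpinb6a*), with log2 ratios from -2.79 to -0.06, and 1 was past the threshold (25% beside 37% of all genes). This was *Cst6*, which encodes cystatin E/M, an inhibitor of legumain and cathepsin L among others, with 21.7 CPM in PC5 against 150 CPM in PC20 (log2 ratio -2.79, -2.83 to -2.74).

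Among 34 detected hydrolases and their cofactors 8 were above 1 and 4 below -1, together 35.3% beside 37% of all genes, with a median of 0.15. The heparan sulfate enzymes lay at both ends. *Sgsh*, a sulfatase, was at 6.78 CPM in PC5 against 0.440 CPM in PC20 (log2 ratio 3.95), whereas *Naglu*, which acts on the same chains, had 7.26 and 30.5 CPM (-2.07). *Pla2g15*, a phospholipase, had 10.5 and 2.44 CPM (2.10) and *Gusb*, which encodes beta-glucuronidase, had 30.7 and 7.51 CPM (2.03). The non-protease enzymes, like the proteases, were therefore mixed in direction. *Sgsh* and *Pla2g15* passed the detection limit through PC5 alone.

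Of 16 detected lysosomal membrane proteins 3 were above 1 and 2 below -1, together 31.2% beside 37% of all genes, with a median of 0.38. The calcium-permeable channel gene *Tpcn1* had 40.3 and 17.4 CPM (1.21), the cystine transporter gene *Ctns* 6.18 and 2.71 CPM (1.19) and *Cln3*, mutated in a juvenile storage disease, 5.58 and 2.61 CPM (1.10). Higher in PC20 were *Cd63*, a tetraspanin of late endosomes, with 305 and 659 CPM (-1.11), and *Cd68*, a Lamp relative best known from macrophages, with 1.51 and 4.49 CPM (-1.57). Of 9 genes for the transport of lysosomal enzymes, 3 were above 1 and 2 below -1, or 55.6% beside 37% of all genes. *Gnptab* and *Nagpa*, which make the mannose 6-phosphate tag, had log2 ratios of 2.04 and 1.15, and the adaptor gene *Gga2* had 1.47. *Gnptg*, which encodes the partner subunit of the *Gnptab* product, had -1.02. The sorting receptor gene *Sort1* was at 1.5 CPM in PC5 against 24.1 CPM in PC20 (log2 ratio -4.01, -4.18 to -3.85), beyond that of any detected pump subunit. *Ctns* and *Cln3* passed the detection limit through PC5 alone, and *Cd68* and *Sort1* through PC20 alone.

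Of the transcription factors of lysosomal genes, *Tfe3* alone was detected, with a log2 ratio of -0.27. *Tfeb* gave 765 UMIs in PC5 and 408 in PC20, and *Mitf* had 920 and 77. All 10 genes of a list of the Ragulator and Rag complexes, which tether the growth regulator mTORC1 to lysosomes, and their regulator *Flcn* were detected. Of these 3, all Rag GTPases, were below -1, or 30% past the threshold beside 37% of all genes. These were *Rragb* (4 UMIs in PC5 against 749 in PC20, log2 ratio -7.77 from -9.65 to -6.41), *Rragd* (-1.55) and *Rraga* (-1.01), while *Rragc*, the other Rag gene, had 0.12. *Rragb* was held by 0.0339% of thinned PC5 cells, which is not read as expression. The list's median was 0.08. *Rragb* and *Rragd* passed the detection limit through PC20 alone.

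**Figure D5:**
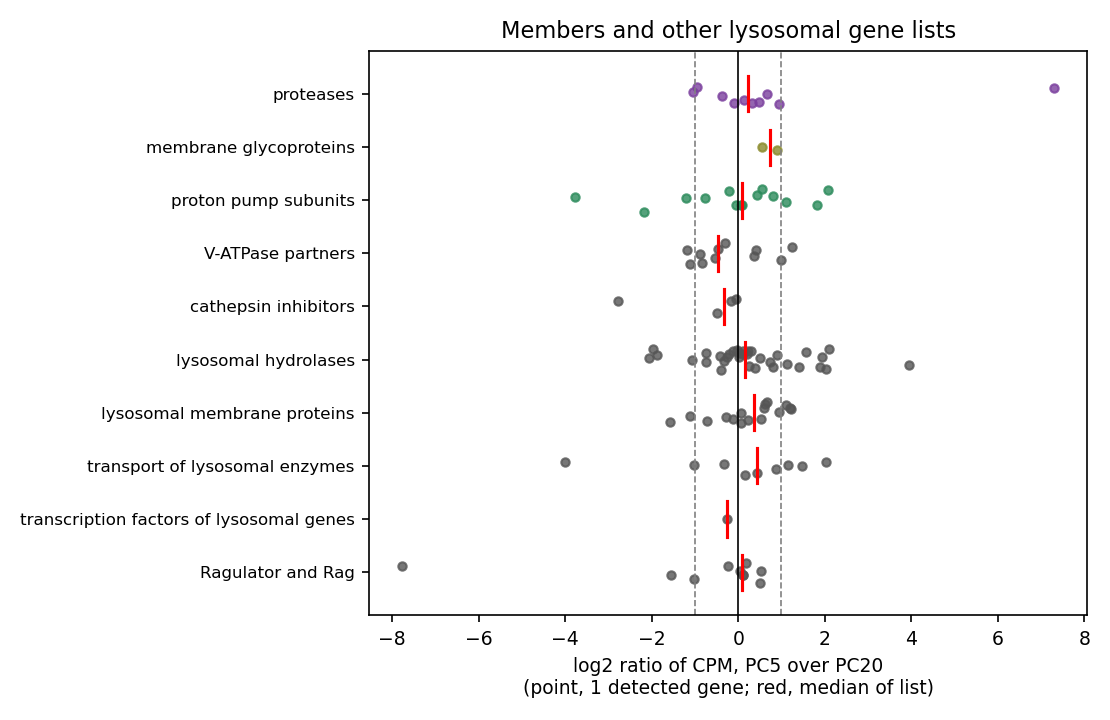
Points give the log2 ratio of CPM, PC5 over PC20, of each detected gene of the 3 member blocks and 7 other lists of lysosomal genes, with the median of each list in red and dashed lines at 1 and -1. All list medians lie between -1 and 1, with *Rragb* at -7.77 (from 4 UMIs in PC5) and *Ctsk* at 7.31 as the farthest points.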

How the data were processed

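The libraries (PC5 and PC20) were grouped by the passage in their titles. The authors made the deposited counts of UMIs per gene and barcode with CellRanger 5.0.1 on mm10 from 10x 3' v3.1 libraries, without normalization. The deposited gene and barcode lists were used only as names. Values were computed in Python 3.11.15 with scipy 1.17.1. Cells passed with over 1000 genes and mitochondrial UMIs below 20%, UMIs were summed over them and scaled to CPM, and no pseudocount was added. No doublet caller was run, so doublets may remain. Summing weights deeper cells more. Genes seen in 10% or more of the cells of PC5 or PC20 were taken as detected. Positions came from GENCODE M21 on GRCm38, which held all 43 members, and promoters from a RefSeq table on GRCm38.p6, in which 7 detected members were not found. Near-identical copies were sought with BLAST 2.17.0 against GENCODE transcripts, over the last 400 bases of 27 members at 95% identity over at least 90 bases.

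Members, gene lists, the threshold of 1 and the promoters shown were chosen with earlier results of these data known. All detected members are named, and of each other list the 3 genes farthest from 0 in each direction among those past 1; *Tcirg1*, the detected inhibitors, *Tfe3*, *Tfeb* and *Mitf* are named beyond this, after their values were seen. Some of the genes this rule picks are not reported here. Simulated PC5 and PC20 libraries of 12560 genes checked the arithmetic only. Their counts held the Poisson noise that the intervals assume. Genes were changed by more than the threshold, so the outcome was largely set in advance. All 200 changed genes came out past the threshold with the right sign and 0 others did. Intervals covered the truth for 95% of the changed and 95.2% of the other genes. Variation between cells or between cultures was not simulated. The alternatives were other cell filters, cells with no *Mki67* or *Top2a* UMI, thinned cells, library sizes that leave out mitochondrial and ribosomal protein genes, means over cells, centring on the median gene, other limits on low values and another threshold. Leaving out single members was added after seeing the data.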

Additional observations from a re-analysis of the deposited data

How the results depend on the processing

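No paired analysis was possible because each passage has 1 library. Without a replicate, intervals cover counting error only, and the depth of these libraries leaves little of it for most members. Of 182 values of single members under 7 alternatives, 180 kept their sign and 180 their side of the threshold. *Atp6v1c1* changed sign, to -0.11 in cells with no *Mki67* or *Top2a* UMI and -0.0018 after thinning. *Ctsb* passed the threshold as a mean over cells (1.05) and *Atp6v0e* fell short in cells with no *Mki67* or *Top2a* UMI (0.90), where the median of the pump subunits was -0.023 and not 0.08. Over members with more than 3 UMIs in both libraries together that median was 0.43, above the 0.23 of the proteases. As reported, the median of the proteases was the higher one. This wider pump set adds *Atp6v0c*, whose level is uncertain, and scarce isoforms such as *Atp6v1b1*, with 8 and 2 UMIs. It leaves out *Atp6v0a4*, which had 0 UMIs in PC20 and so no ratio. The summed protease log2 ratio of -0.01 became -0.027 in cells with no *Mki67* or *Top2a* UMI, 0.0078 after thinning, 0.017 with library sizes that leave out mitochondrial and ribosomal protein genes, 0.061 as a mean over cells and 0.028 centred on the median gene. In the same order the summed pump log2 ratio of -0.33 became -0.35, -0.35, -0.31, -0.31 and -0.29, and it turned to 0.27 without *Atp6v1g1*. The protease sum was 0.31 without *Ctsl*, -0.35 without *Ctsb* and -0.058 without *Ctsd*. Protease UMIs per pump UMI moved from 1.03 in PC5 to 1.11 in cells with no *Mki67* or *Top2a* UMI, 1.06 after thinning, 1.09 as a mean over cells and 1.17 without *Atp6v1g1*. In PC20 they moved from 0.828 to 0.891 in cells with no *Mki67* or *Top2a* UMI, 0.837 as a mean over cells and 1.42 without *Atp6v1g1*. At a threshold of 0.5 the members higher in PC5 went from 4 to 10, beside 30.2% of all genes. The causes of these moves were not tested.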
